A study of Rattus norvegicus with 218 samples.

Results

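The genes Cacna1g, Cacna1h and Cacna1i encode the pore-forming subunits of the T-type calcium channels. All 3 were assayed in rat neurons from the dorsal motor nucleus of the vagus, abbreviated DMV, a brainstem nucleus whose cells send vagal motor output to the viscera. They make up 3 of the 165 genes on the panel, and each had 1 of the 168 assays. The members were picked by gene symbol, but the set was chosen by a pattern already known in these data, namely that Cacna1g had a value in a smaller share of pools from naive animals than from operated animals. Values of Cacna1g in pools against naive animals are therefore given as a description, with no test.

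T-type channels open at voltages close to the resting potential and inactivate quickly, so they carry calcium when a neuron has been hyperpolarized and then depolarizes. In many neurons they underlie low-threshold spikes, rebound bursts and part of the pacemaker current. Cacna1g encodes the alpha subunit that is prominent in thalamic relay neurons, Cacna1h the subunit known from sensory neurons and for its block by low nickel, and Cacna1i a slowly inactivating subunit that is largely neuronal. The other calcium channel genes on the panel, Cacna1a to Cacna1e, encode high-voltage-activated subunits, which open at stronger depolarization and serve transmitter release and calcium entry during spikes.

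All animals were adult male Sprague Dawley rats. The 3 naive animals were not operated. The 4 sham and the 3 RIPC (remote ischemic preconditioning) animals had ketamine/xylazine anesthesia and exposure of the femoral vessels of both legs, which were tied off and released in RIPC animals and left untied in sham animals. The operated groups were taken hours after reperfusion. The effects of anesthesia and of the wound cannot be told apart in a comparison with naive animals. Cells stained for NeuN, a neuronal nuclear protein, were captured by laser from left and right DMV, as single neurons or as pools of 2 to 8 cells per the labels, and measured by microfluidic RT-qPCR with EvaGreen detection.

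An assay with enough transcript gives a threshold cycle (Ct), and the more transcript a sample holds, the earlier that cycle comes. Assays below the limit of detection give no value. Detection here means that a Ct was recorded. The 10 animals gave 213 samples, and those with a value in 25% or more of the assays were kept. That left 186 samples, made up of 98 single neurons and 88 pools. Their number of assays with a value, which stands in for depth, had a median of 69 in single neurons and 96 in pools. Naive replicate 3 gave 54 of the 57 naive single neurons, and naive replicate 1 gave none. Tests were run over animals, each of which counts as 1 replicate, so that differences were set against the spread of the animals' values. That spread includes counting error, which is large in animals with few samples. The neuronal genes Scn2a, Camk2a and Rgs4 had a value in 97.3%, 95.2% and 89.2% of the kept samples. Chat, the enzyme that makes acetylcholine and the defining marker of vagal motor neurons, had a value in 75.3%, and Gfap, an astrocyte gene, in 79.0%.

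Cacna1h was the T-type subunit detected most often and Cacna1g the least. Over the kept samples Cacna1h had a value in 130 of 186 (69.9%), Cacna1i in 99 (53.2%) and Cacna1g in 73 (39.2%). By share of samples with a value, Cacna1h came 58th, Cacna1i 81st and Cacna1g 92nd of the 165 genes. Assays differ in efficiency, so this order is an order of detection and not of transcript number. Of the 5 high-voltage-activated genes, Cacna1c had the lowest share, 13.4%, and Cacna1e the highest, 96.2%. The excitability list of 12 genes ran from 23.7% for Trpc6, a receptor-operated cation channel, to 97.3% for Scn2a, a voltage-gated sodium channel.

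The 27 samples below the limit on assays held few values of the members: 1 for Cacna1g, 4 for Cacna1h and 2 for Cacna1i. Over all 213 samples the median Ct was 16.5 for Cacna1g, 15.4 for Cacna1h and 14.9 for Cacna1i, beside 14.8 over every value of the panel. Values above 20 cycles, where few molecules started the reaction, made up 5.41% of those of Cacna1g, 9.70% of those of Cacna1h and 1.98% of those of Cacna1i. For all genes that share was 5.07%.

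Repeat runs show how firm a call of detection was. In 5 neurons that were run again, the members gave 15 pairs of calls. In 8 of these pairs the runs had the same call, 1 with a value in both and 7 with none, and in 7 pairs a value appeared in only 1 of the runs. The pair detected in both runs, Cacna1h in a neuron of naive replicate 3, had Ct values of 20.3 and 15.6. An absent value in a single neuron therefore does not show that the transcript was absent.

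In pools, Cacna1g had a value in a smaller share of naive samples than of sham or RIPC samples. It was detected in 1 of 3 pools of naive replicate 1, in 1 of 10 of replicate 2 and in 4 of 11 of replicate 3. In sham replicates 1 to 4 it was detected in 5 of 7, 7 of 11, 7 of 11 and 9 of 17 pools. In RIPC replicates 1 to 3 it was detected in 4 of 8, 6 of 8 and 2 of 2 pools. Every sham and every RIPC animal lay above the highest naive animal, with shares of 10.0% to 36.4% in naive, 52.9% to 71.4% in sham and 50% to 100% in RIPC animals.

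The mean share for Cacna1g was 26.6% ± 14.4 (SD, n = 3) in naive, 62.9% ± 7.59 (SD, n = 4) in sham animals and 75% ± 25 (SD, n = 3) in RIPC animals. Sham animals were 36.3 points and RIPC animals 48.4 points above naive animals. Both differences rest on the same 3 naive animals, and this is the pattern by which the set was chosen. On the panel, such a full separation of sham from naive animals was found for 3.85% of the 130 genes examined, of RIPC from naive animals for 3.08%, and of both for 0.769%, which is Cacna1g alone. In RIPC replicate 3 the share rests on 2 pools, and without this animal the difference from naive animals was 35.9 points. With samples kept at 50% or more of the assays it was 66.3 points, over 2 naive and 2 RIPC animals, and with single neurons and pools combined it was 29.7 points.

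**Figure D1:**
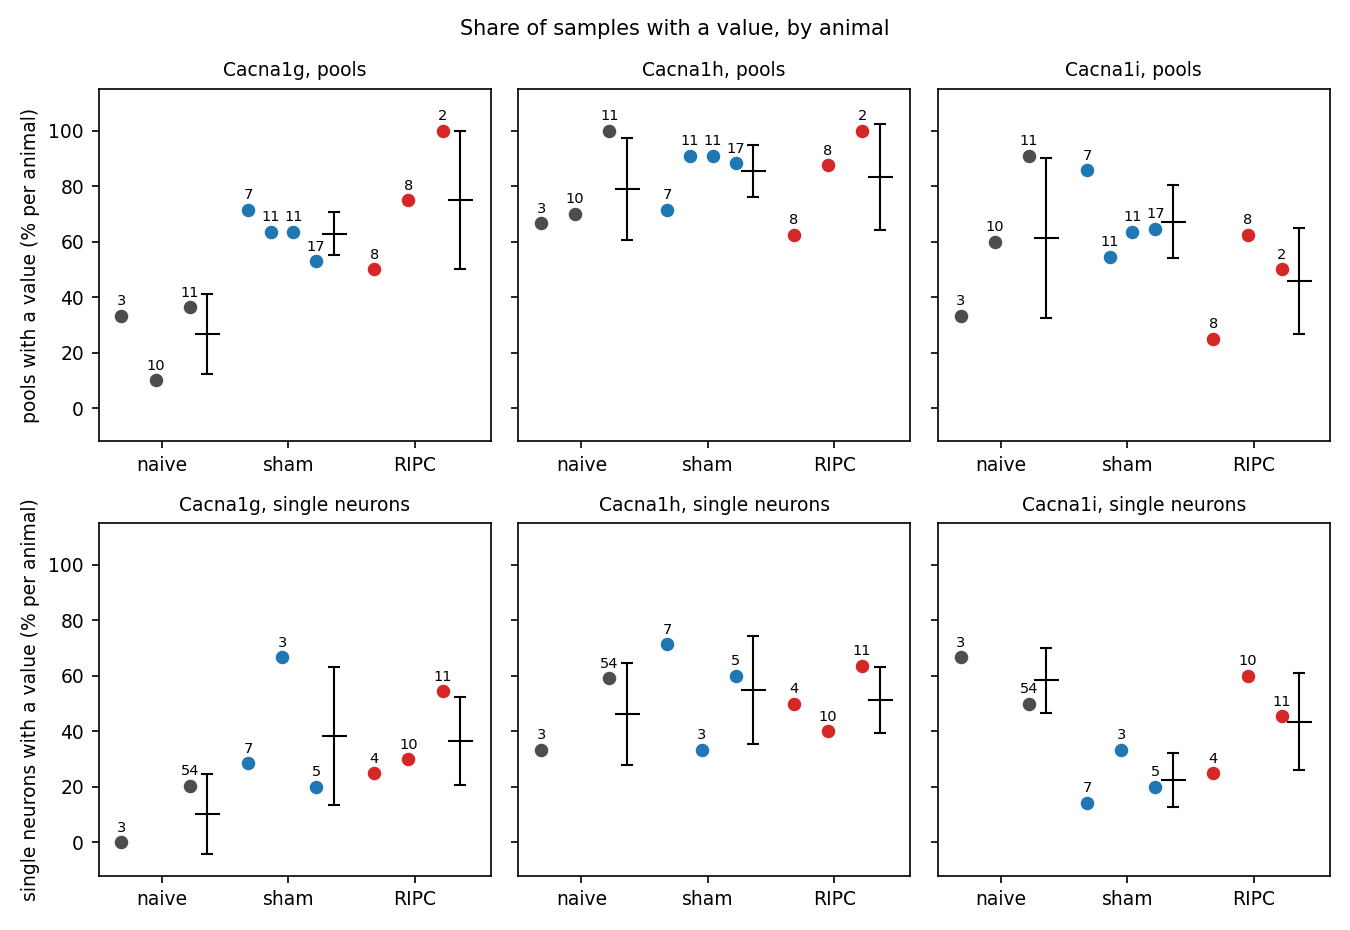
Share of samples with a value for Cacna1g, Cacna1h and Cacna1i (y axis, percent) in naive, sham and RIPC animals (x axis), for pools in the upper row and single neurons in the lower row. Each point is an animal, the number beside it is its number of samples, and the bars give the mean and SD over animals; for Cacna1g in pools all naive animals lie below all others, while in pools the groups overlap for Cacna1h and Cacna1i.

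Yield and marker genes also varied between the groups of pools. The median number of assays with a value was 94.5 in naive, 100.5 in sham and 85.0 in RIPC pools. Pools with a value in at least 50% of the assays were also counted. Cacna1g had a Ct in 5 of 19 from naive, 24 of 35 from sham and 8 of 9 from RIPC animals. These are counts of pools and not of animals, and they describe the pattern by which the set was chosen. Gfap, the astrocyte marker on the list, was found in 87.5% of the pools from naive animals, 78.3% of those from sham and 61.1% of those from RIPC animals. Chat had a value in 91.7%, 82.6% and 66.7% of these pools, and Gad1, which makes the inhibitory transmitter GABA, in 58.3%, 34.8% and 16.7%. These markers ran in the opposite order to Cacna1g. Other markers were highest in sham pools. Ache, the enzyme that breaks down acetylcholine, had a value in 87.5%, 95.7% and 77.8% of naive, sham and RIPC pools, and Th, the rate-limiting enzyme of catecholamine synthesis, in 70.8%, 87.0% and 50%. Fos, a gene induced by activity, was lowest in naive pools as Cacna1g was, at 16.7%, 37.0% and 22.2%. In single neurons Gfap had a value in 73.7%, 93.8% and 88.0% of naive, sham and RIPC samples. Chat had a value in 68.4%, 68.8% and 72% of these neurons, and Gad1 in 31.6%, 25% and 52%, so the falling order of pools was not seen there. The part of yield and of these markers in the Cacna1g pattern was not tested.

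RIPC and sham animals, a comparison that did not enter the choice of the set, did not differ detectably for Cacna1g in pools. The difference was 12.1 points (SE 14.2, adjusted p = 0.994, limma), with an exact permutation p of 0.40 over 7 animals, where the smallest p possible is 0.0286. RIPC replicate 1, at 50%, lay below all sham animals, and the other RIPC animals lay above all of them.

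Single neurons came from the same animals but were not used in choosing the set. Cacna1g had a value in 0 of 3 single neurons of naive replicate 2, which allows a share of up to 70.8%, and in 11 of 54 of naive replicate 3, a share of 20.4% with an interval from 10.6% to 33.5%. These are exact binomial 95% limits and cover counting error only. In sham animals it had a value in 2 of 7, 2 of 3 and 1 of 5 neurons of replicates 1, 2 and 4, while replicate 3 had only 1 kept neuron and was not used in the means or tests. In RIPC animals the counts were 1 of 4, 3 of 10 and 6 of 11. All RIPC animals lay above both naive animals, as was the case for 10.7% of the 122 genes examined in single neurons, and sham replicate 4, at 20%, lay just below naive replicate 3.

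The mean share of single neurons with Cacna1g was 10.2% ± 14.4 (SD, n = 2) in naive, 38.4% ± 24.8 (SD, n = 3) in sham animals and 36.5% ± 15.8 (SD, n = 3) in RIPC animals. The differences from naive animals were 28.2 points for sham (SE 16.8, adjusted p = 0.789) and 26.3 points for RIPC (SE 16.8, adjusted p = 0.893), and neither passed the test with limma. Without sham replicate 2 the sham difference was 14.1 points, and the RIPC difference was 16.1 points without naive replicate 2 and 17.3 points without RIPC replicate 3. Without naive replicate 2 the sham difference was 18.0 points. Exact permutation gave p = 0.30 and p = 0.20, and with 3 animals against 2 it cannot go below 0.10. RIPC against sham gave a difference of -1.90 points (SE 15.0, adjusted p = 0.966 by limma).

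Cacna1h had a value in most pools of every group. It was detected in 2 of 3, 7 of 10 and 11 of 11 pools of the naive animals. In sham animals the counts were 5 of 7, 10 of 11, 10 of 11 and 15 of 17, and in RIPC animals they were 5 of 8, 7 of 8 and 2 of 2. The groups overlapped over nearly their whole range, with means of 78.9% ± 18.4 (SD, n = 3) in naive, 85.4% ± 9.38 (SD, n = 4) in sham animals and 83.3% ± 19.1 (SD, n = 3) in RIPC animals. Sham exceeded naive by 6.48 points (SE 14.0, adjusted p = 0.932 by limma) and RIPC exceeded naive by 4.44 points (SE 14.9, adjusted p = 0.996 by limma). The latter turned to -5.56 points with animals weighted by their samples and to -3.89 points without RIPC replicate 3. Exact permutation p was 0.571 and 1.

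In single neurons Cacna1h was detected in 1 of 3 and 32 of 54 neurons of naive replicates 2 and 3. The sham counts were 5 of 7, 1 of 3 and 3 of 5, and the RIPC counts were 2 of 4, 4 of 10 and 7 of 11. Group means were 46.3% ± 18.3 (SD, n = 2), 54.9% ± 19.5 (SD, n = 3) and 51.2% ± 11.9 (SD, n = 3) in naive, sham and RIPC animals, closer to each other than the animals within a group. The limma differences were 8.62 points for sham and 4.92 points for RIPC against naive, each with an SE of 16.3.

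In pools, Cacna1i had the widest spread of the 3 subunits among naive animals. It was detected in 1 of 3, 6 of 10 and 10 of 11 of their pools, in 6 of 7, 6 of 11, 7 of 11 and 11 of 17 pools of sham animals, and in 2 of 8, 5 of 8 and 1 of 2 pools of RIPC animals. Mean shares were 61.4% ± 28.8 (SD, n = 3) in naive, 67.2% ± 13.2 (SD, n = 4) in sham animals and 45.8% ± 19.1 (SD, n = 3) in RIPC animals. RIPC lay 21.3 points below sham, a difference of -21.3 (SE 15.3, adjusted p = 0.994 by limma), with an exact permutation p of 0.143. It was -10.9 points without RIPC replicate 1, and -8.93 points with samples kept at 50% or more of the assays. Sham replicates 2, 3 and 4 lay from 54.5% to 64.7%, and RIPC replicate 2, at 62.5%, fell among them.

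In single neurons the order of the groups for Cacna1i was a different one. It was detected in 2 of 3 and 27 of 54 neurons of naive replicates 2 and 3, in 1 of 7, 1 of 3 and 1 of 5 neurons of sham replicates 1, 2 and 4, and in 1 of 4, 6 of 10 and 5 of 11 neurons of the RIPC animals. All sham animals lay below both naive animals, with means of 22.5% ± 9.77 (SD, n = 3) and 58.3% ± 11.8 (SD, n = 2), and the same separation was found for 7.38% of the 122 genes. The RIPC mean was 43.5% ± 17.6 (SD, n = 3). The difference of -35.8 points (SE 15.9) had an adjusted p of 0.789 with limma, and the exact permutation p of 0.10 is the smallest that the design allows. In pools the same contrast was 5.74 points (SE 15.3, adjusted p = 0.932 by limma), but it was -5.62 points with animals weighted by their samples, -7.07 points with the mean number of assays as a covariate and -8.30 points without naive replicate 1. RIPC animals differed by -14.8 points from naive (SE 15.9, adjusted p = 0.993 by limma) and by 20.9 points from sham animals (SE 14.2, adjusted p = 0.908 by limma), with exact permutation p values of 0.40 and 0.20. In pools the latter difference had the opposite sign. Whether single neurons and pools differ in these contrasts was not tested.

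The fits across the panel include Cacna1g, and nothing is read from the counts against naive animals in pools for that gene. On the panel no gene passed the adjusted threshold of 0.05 with limma in any treatment contrast, so the called share was 0% for pools, for single neurons and for level. In pools 2, 4 and 1 of the 130 genes had an unadjusted p under 0.05 in sham against naive, RIPC against naive and RIPC against sham. In single neurons the counts were 5, 3 and 7 of 122 genes. Fisher's exact test over pools, which treats pools of an animal as independent, called 0 genes in each contrast after adjustment, with 7, 8 and 10 at an unadjusted p under 0.05.

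Among the high-voltage-activated genes 4 of 5 could be tested in pools. None passed in either direction, and their median difference was 11.2 points for sham and -5.42 points for RIPC against naive, beside medians of 7.43 and 0.694 points over all 130 genes. The 10 excitability genes tested had medians of 13.1 and 5.57 points in the same contrasts, and none passed. The extremes of this list against naive were Trpc6 at 20.5 points and Camk2a at -3.98 points in sham, and Kcnn4, a calcium-activated potassium channel, at 17.8 points and Grin2a, an NMDA receptor subunit, at -18.1 points in RIPC.

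Level was examined in samples with a value. It is the Ct with its sign turned, relative to the sample's median over the 35 most widely detected genes, so that 1 cycle corresponds to about a doubling and higher means more transcript. In bulk pools a lower level can come from fewer expressing cells or from less RNA per cell, and the assay cannot tell these apart. The Cacna1g level in pools ran from -8.24 to -0.512 in naive samples (median -4.89, 6 pools), from -6.87 to -0.554 in sham samples (median -3.68, 28 pools) and from -7.47 to -1.31 in RIPC samples (median -4.71, 12 pools). The groups overlapped almost completely. Naive animals had too few detected pools for a test, since only replicate 3 had at least 2, with a mean of -5.82. The animal means were -3.39 ± 0.880 (SD, n = 4) in sham animals and -4.05 ± 1.05 (SD, n = 3) in RIPC animals. They differed by -0.659 cycles, with an exact permutation p of 0.286.

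The Cacna1h level in pools averaged -2.98 ± 1.34 (SD, n = 3) in naive, -2.39 ± 0.909 (SD, n = 4) in sham animals and -2.36 ± 2.04 (SD, n = 3) in RIPC animals. The RIPC animals stood far apart from each other, at -4.23, -2.65 and -0.185 cycles for replicates 1, 2 and 3. No contrast passed, with differences of 0.596 (sham against naive, SE 0.920), 0.628 (RIPC against naive, SE 0.984) and 0.0314 cycles (RIPC against sham, SE 0.920), and adjusted p values from 0.931 to 0.984 by limma. For Cacna1i the sham animals averaged -1.72 ± 0.470 (SD, n = 4), and a mean could be had in 2 naive animals, -1.17 ± 0.736, and in 2 RIPC animals, -2.20 ± 0.181. RIPC against naive differed by -1.03 cycles (SE 0.714, adjusted p = 0.931 by limma). Of the 99 genes tested by level, 0, 4 and 3 had an unadjusted p under 0.05 in sham against naive, RIPC against naive and RIPC against sham.

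**Figure D2:**
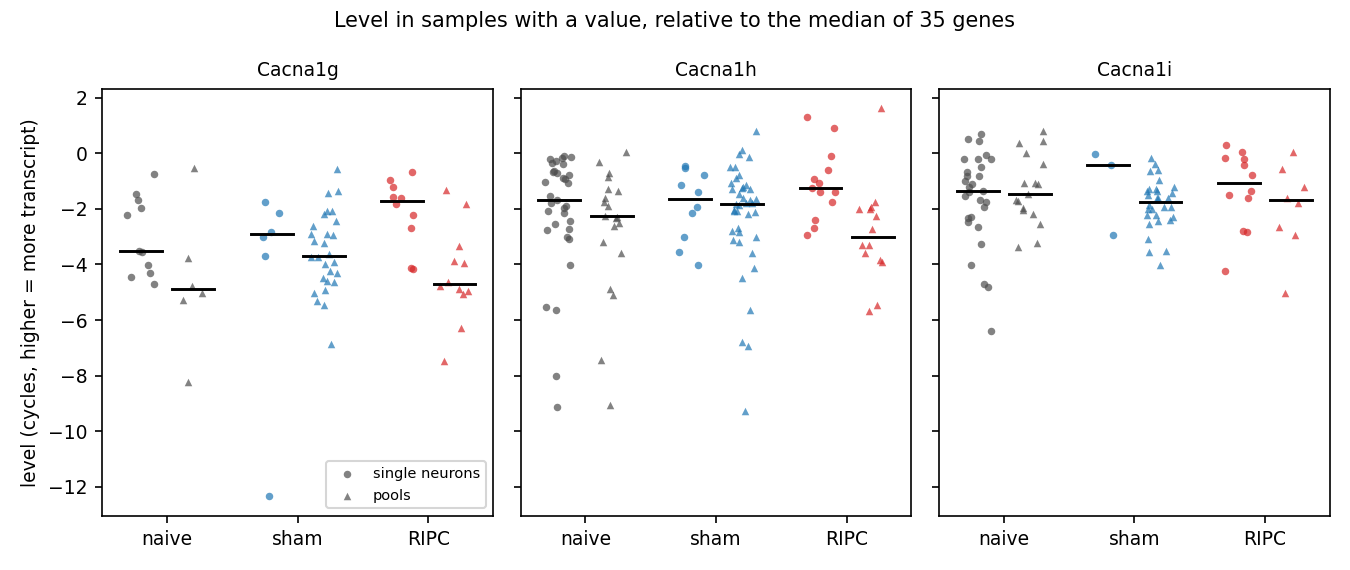
Level of Cacna1g, Cacna1h and Cacna1i in every kept sample with a value (y axis, cycles relative to the median of 35 genes, higher is more transcript) by group (x axis), with circles for single neurons, triangles for pools and a black line at each median. The groups overlap for each gene, and a single neuron of sham replicate 1 stands lowest for Cacna1g at -12.3 cycles.

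In single neurons the median level of Cacna1g was -3.53 in 11 naive, -2.91 in 6 sham and -1.70 in 10 RIPC neurons. Those of RIPC ranged from -4.16 to -0.688 and those of naive animals from -4.71 to -0.748, so their ranges coincided. Cacna1h had medians of -1.69, -1.66 and -1.24 in naive, sham and RIPC neurons. Cacna1i had a value in only 3 sham neurons, and its medians were -1.35 in 29 naive and -1.06 in 12 RIPC neurons. Levels in single neurons were not tested by treatment.

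Cacna1h had a value more often in pools than in single neurons of the same animal, and Cacna1i did not pass this test. Cacna1g is described only, since its pool shares entered the choice of the set. In the 8 animals with both kinds of sample, Cacna1h had a value in 83.8% ± 14.2 (SD) of pools and 51.4% ± 14.5 (SD) of single neurons. The difference of 32.4 points (SE 7.93, adjusted p = 0.0190, limma) was positive in 7 animals and 0 in sham replicate 1, and the exact sign-flip permutation p was 0.0156. For Cacna1g the shares were 57.4% ± 27.1 and 30.6% ± 20.9 (SD, n = 8). Its difference of 26.8 points was made up of 10 and 16.0 points in naive replicates 2 and 3, of 42.9, -3.03 and 32.9 points in sham replicates 1, 2 and 4, and of 25, 45 and 45.5 points in the RIPC animals.

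For Cacna1i the shares were 61.7% ± 20.6 in pools and 39.3% ± 19.2 in single neurons (SD, n = 8), and the difference of 22.3 points (SE 9.24) did not pass, with an adjusted p of 0.0970 by limma and an exact sign-flip p of 0.0625. Its animals were uneven. Sham replicate 1 differed by 71.4 points, sham replicate 4 by 44.7 and naive replicate 3 by 40.9, while the RIPC animals differed by 0, 2.50 and 4.55 points and naive replicate 2 went the other way, at -6.67 points. Leaving out RIPC replicate 1 brought the adjusted p for Cacna1i to 0.0355 by limma. The number of genes called on the panel went down to 5 without sham replicate 1 and up to 57 without RIPC replicate 1.

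**Figure D3:**
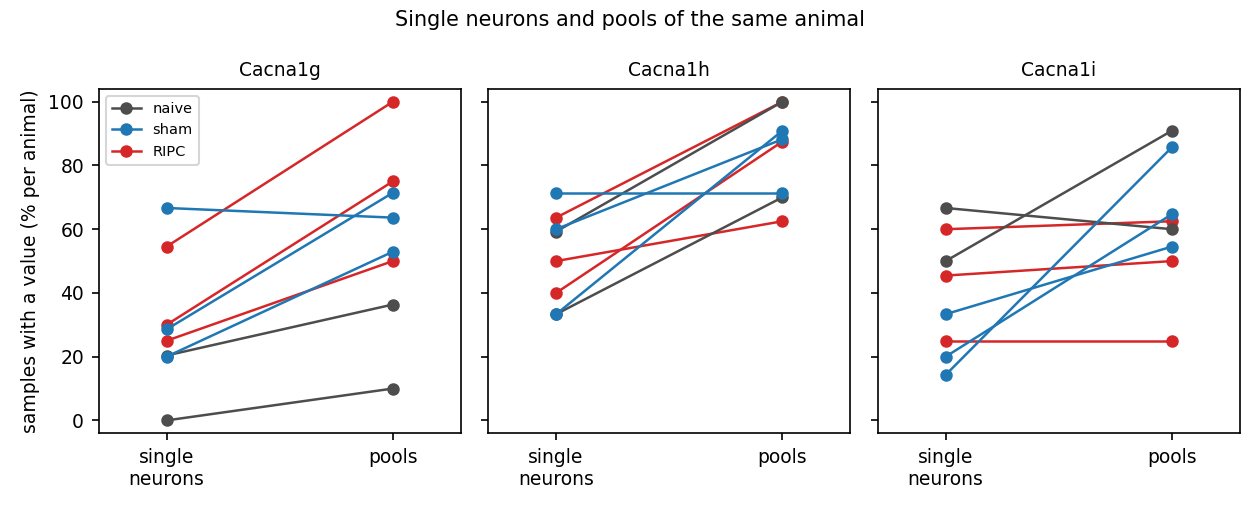
Share of samples with a value (y axis, percent) in single neurons and in pools of the same animal (x axis) for the 3 subunits, with a line for each of 8 animals coloured by group. For Cacna1h 7 lines go up and that of sham replicate 1 is flat, and for Cacna1i the RIPC lines are nearly flat while those of sham animals climb.

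On the whole panel 23 of 132 genes, or 17.4%, were called in this comparison, all of them higher in pools, and the median difference over all genes was 15.2 points. All 3 subunits lay above that median. The 4 high-voltage-activated genes tested had a median difference of -1.55 points, from -4.39 for Cacna1c to 5.61 for Cacna1d, and none was called. Of 11 excitability genes, 2 were called higher in pools and none lower, with a median of 9.68 points. They were Kcna1, a delayed-rectifier potassium channel, at 39.2 points (adjusted p = 0.0117 by limma) and Kcnn4 at 25.4 points (adjusted p = 0.0415 by limma). Single neurons had Cacna1b and Cacna1e in 94.9% and 95.9% of cases, and pools in 89.8% and 96.6%.

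Detection did not climb steadily with the number of cells. Cacna1g had a value in 27 of 98 single neurons (27.6%), 14 of 26 samples of 2 or 3 cells (53.8%), 14 of 23 samples of 4 cells (60.9%) and 18 of 39 samples of 5 to 8 cells (46.2%). Cacna1h had a value in 57.1%, 80.8%, 87.0% and 84.6% of these samples, and Cacna1i in 44.9%, 65.4%, 56.5% and 64.1%. The median number of assays with a value was 69, 92 and 98 in the first 3 of these classes and higher still in the largest pools.

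If each cell of a pool had a value independently, at the share of its animal's single neurons, the 74 pools of these 8 animals would hold 46.2 with Cacna1g, 65.4 with Cacna1h and 56.5 with Cacna1i. The numbers seen were 38, 62 and 47. All 3 fell short of this arithmetic, which is given as a description.

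No subunit differed detectably between left and right DMV. The side label of every right sample is misspelled, and the side was read from the condition label, which says right. Over 9 animals with at least 2 kept samples on each side, the share with Cacna1g was 44.6% ± 24.0 for left samples and 47.6% ± 19.6 for right samples (SD). Cacna1h had 71.8% ± 10.4 and 70.6% ± 16.3, and Cacna1i 51.9% ± 17.3 and 50.9% ± 11.2 (SD). The left minus right differences were -3.01 points (SE 6.62) for Cacna1g, 1.26 (SE 5.90) for Cacna1h and 0.986 (SE 6.30) for Cacna1i. Adjusted p values were 0.979, 0.989 and 0.989 with limma, and exact sign-flip p values were 0.668, 0.773 and 0.891.

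Individual animals differed in sign. For Cacna1g the left side was higher by 29.2 points in sham replicate 1 and 25 points in sham replicate 3, and the difference was -26.7 points in sham replicate 4 and -25 points in RIPC replicate 2. For Cacna1i it ran from -25 points in sham replicate 3 to 21.4 points in naive replicate 2. The side difference did not vary detectably between naive, sham and RIPC animals, with adjusted p values of 0.997 by limma for each of the 3 genes. No gene of the panel was called for side or for side by treatment (0% of 132 genes each, with 6 and 3 genes at an unadjusted p under 0.05).

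Levels did not differ detectably between the sides either. The left minus right difference was -0.0570 cycles (SE 0.336, 8 animals) for Cacna1g, 0.292 (SE 0.262, 9 animals) for Cacna1h and 0.0468 (SE 0.224, 8 animals) for Cacna1i. Adjusted p values were 0.961, 0.918 and 0.947 by limma. Cacna1h was higher on the left in 6 animals and lower in 3. Of 113 genes none passed (0%), and 3 had an unadjusted p under 0.05.

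The subunits were often found together, and most of all in samples that yielded many assays. Of the 98 single neurons, 13 had all 3, 26 had 2, 36 had 1 and 23 had none. The median number of assays with a value was 81, 80.5, 68 and 56 in these classes. Among neurons with at least 1 subunit, Cacna1h alone was the most common pattern, in 20 neurons, followed by Cacna1h with Cacna1i in 15. Cacna1g was seen without the other subunits in only 3 neurons.

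Pair counts can be set beside the product of the shares within each animal. Cacna1g and Cacna1h were both detected in 21 single neurons, where the product gives 15.7. Cacna1g and Cacna1i were both detected in 16 against 11.4, and Cacna1h and Cacna1i in 28 against 24.4. Of neurons with Cacna1g, 77.8% also had Cacna1h, whereas 37.5% of those with Cacna1h had Cacna1g. In the 22 single neurons with a value in at least 50% of the assays, the pairs numbered 10, 6 and 13, and the products over these neurons were 10.0, 7 and 12.7. In the 76 neurons of lower yield the pairs numbered 11, 10 and 15 beside products of 7.58, 6.32 and 14.2, so the excess over the product lay mostly there and was smallest for Cacna1h and Cacna1i. The products at each yield are over all these neurons and not within animals.

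**Figure D4:**
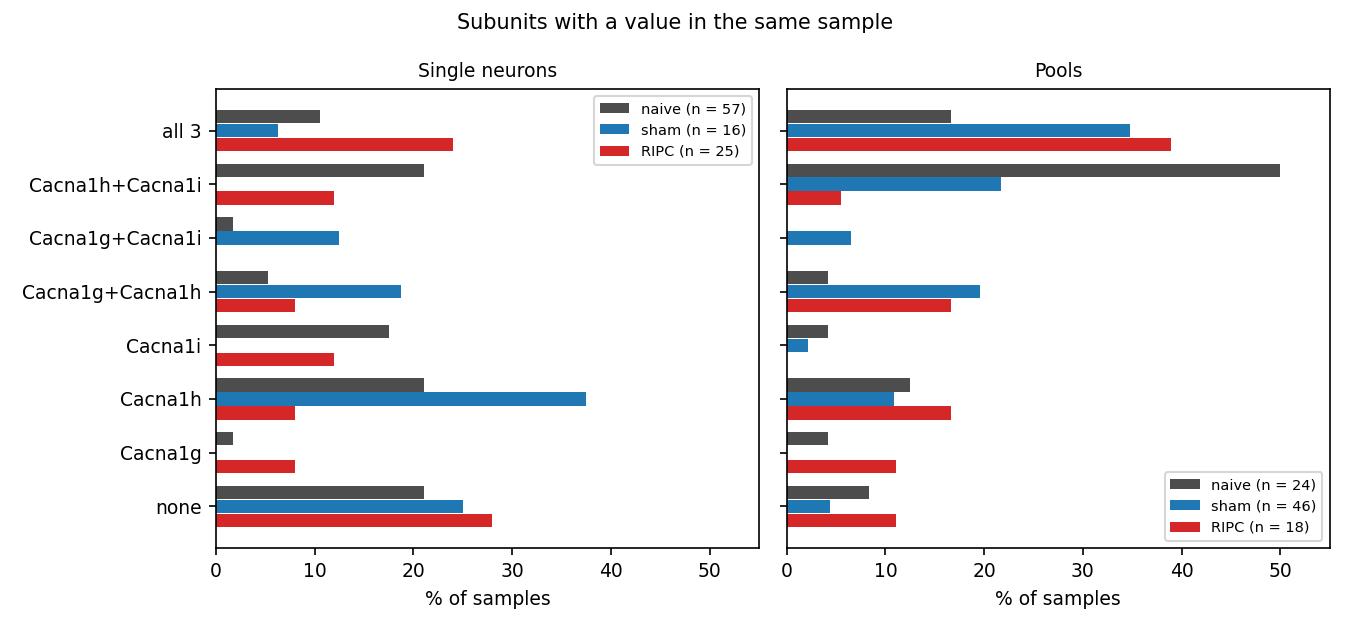
Percent of samples (x axis) with each combination of subunits detected (y axis) in single neurons, left, and pools, right, coloured by group. The pair of Cacna1h and Cacna1i without Cacna1g makes up 50% of naive pools, 21.7% of sham pools and 5.56% of RIPC pools.

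In pools all 3 subunits were present together in 4 of 24 naive samples, 16 of 46 from sham and 7 of 18 from RIPC animals. Cacna1h and Cacna1i without Cacna1g were found in 12 naive, 10 sham and 1 RIPC pool, which restates the Cacna1g pattern above. Pair counts over the 88 pools lay near the products: 40 beside 39.4 for Cacna1g and Cacna1h, 30 beside 28.7 for Cacna1g and Cacna1i, and 50 beside 47.3 for Cacna1h and Cacna1i. Only 6 of the 88 pools had none of the subunits, and their median number of assays with a value was 49.5.

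Detection was more frequent at high yield for all 3 genes. Among single neurons, Cacna1h had a value in 36 of 76 with fewer than 50% of the assays and in 20 of 22 with at least 50%. Cacna1i had a value in 30 of 76 and 14 of 22, and Cacna1g in 16 of 76 and 11 of 22. In pools Cacna1i went from 7 of 25 at lower yield to 48 of 63 at higher yield, Cacna1h from 14 of 25 to 60 of 63 and Cacna1g from 9 of 25 to 37 of 63. For Cacna1h and Cacna1i the groups came close together in the pools of high yield. For Cacna1h the counts were then 18 of 19 in naive, 33 of 35 in sham and 9 of 9 in RIPC animals, and for Cacna1i they were 15 of 19, 26 of 35 and 7 of 9.

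**Figure D5:**
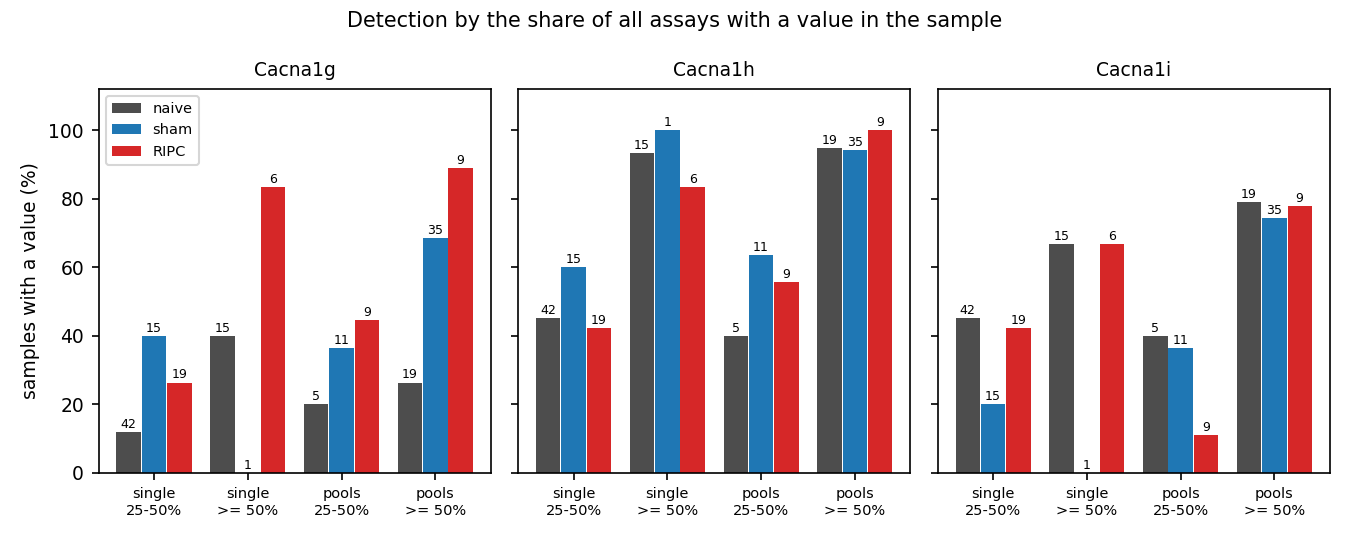
Percent of samples with a value (y axis) for each subunit in samples with a value in 25% to 50% or at least 50% of all assays (x axis), for single neurons and pools, coloured by group and with the number of samples above each bar. Bars of Cacna1h and Cacna1i reach similar heights in all groups for pools of high yield, while those of Cacna1g are 26.3%, 68.6% and 88.9% in naive, sham and RIPC pools.

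Single neurons were also divided by transmitter and activity genes. Cacna1g had a value in 19 of 68 neurons with Chat and in 8 of 30 without it. Cacna1h had a value in 58.8% and 53.3%, and Cacna1i in 47.1% and 40.0% of these neurons. The medians were 72.5 and 64 assays with a value, and the differences were not tested.

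By Gad1 or Gad2, the enzymes of GABA synthesis, Cacna1i was detected in 29 of 51 neurons with either enzyme (56.9%) and in 15 of 47 without (31.9%), with medians of 71 and 68 assays with a value. Cacna1g had a value in 33.3% and 21.3% of these neurons, and Cacna1h in 62.7% and 51.1%. By Th, Cacna1g was detected in 22 of 55 neurons that had Th (40.0%) and in 5 of 43 that lacked it (11.6%), at medians of 75 and 63 assays. Cacna1h had a value in 63.6% and 48.8% of these neurons, and Cacna1i in 50.9% and 37.2%. Of the 14 neurons with Fos, 13 had Cacna1h, 9 had Cacna1g and 9 had Cacna1i, but these neurons had a median of 96.5 assays with a value beside 68 in the others. The divisions mix animals and yields, and they were not tested.

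The genes with the most similar detection across the 98 single neurons were sought after a linear fit on animal and number of assays with a value, among 121 other genes. For Cacna1g they were Chrna4, a nicotinic receptor subunit (r = 0.38), Agtr1a, an angiotensin receptor (r = 0.28), and Htr7, a serotonin receptor (r = 0.23). For Cacna1h they included Hcn3, a hyperpolarization-activated channel (r = 0.26), and Creb1, a transcription factor (r = 0.21). For Cacna1i they were Gad1 (r = 0.33), Nppc, a natriuretic peptide (r = 0.25), and Drd2, a dopamine receptor (r = 0.24). All are weak in calls that repeat poorly between runs, and all points share the same libraries. These genes were picked from the top of 121 values for each member and were not tested. The members were not picked in this way, and their values were lower. They had r = 0.076 for Cacna1g and Cacna1h, 0.084 for Cacna1g and Cacna1i and -0.016 for Cacna1h and Cacna1i. Of the 121 genes set beside Cacna1g, Cacna1i came at place 27 and Cacna1h at place 33. Beside Cacna1h, Cacna1i came at place 65.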

How the data were processed

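The authors deposited raw threshold cycles (Ct), with no normalization, from preamplified cDNA on a microfluidic RT-qPCR instrument; other values, the undetected assays, were left empty. Per the study's methods, samples of all treatments were spread at random over several chips; which sample ran on which chip is unknown here, so chip was not a term in any fit. Groups, animals, sides and cell numbers came from the labels. A single neuron labelled RIPC replicate 3, whose title resembles those of RIPC replicate 2, was used as labelled. Duplicate assays of a gene and second runs of 5 samples were averaged. The members and gene lists were chosen with earlier results of these data known.

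Samples with a value in at least 25% of 168 assays were kept (190 of 218 columns). The study's methods word the limit as 50%, which keeps 84 columns and is an alternative here, but the number of samples they go on to use is the one found at 25%. Each animal gave its share of samples with a value (at least 2 pools or 3 single neurons; genes detected in 10% to 95% of samples) or its mean level (at least 2 values). Two-sided fits over all genes (R 4.3.3, limma 3.58.1) used Benjamini-Hochberg adjustment. They were also run on simulated data, where shares had counting error only and no spread between animals. That run does not show how the fits of shares perform where animals differ. Exact permutation tests over animals were two-sided. Named genes were the members, list members that passed or lay at the extremes, and the 3 genes most alike in detection, of which 1 is not reported here.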

Additional observations from a re-analysis of the deposited data

Results flagged for a closer look

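Of 15 sets of 4 to 9 animals examined for an animal far from the others, 2 held such an animal, where chance flags about 1 in 20. In sham replicate 1 Cacna1h was detected in 71.4% of 7 pools, while the other sham animals lay between 88.2% and 90.9%. In sham replicate 4 the mean Cacna1i level in pools was -2.42 cycles, while the other sham animals lay between -1.57 and -1.44.

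Samples below the limit on assays, which were left out of the main comparisons, held values of the members in operated animals. Among 16 such sham and RIPC samples 1 had Cacna1g and 3 had Cacna1h, and among 11 such naive samples 0 and 1 did.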

How the results depend on the processing

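Among the treatment and side differences of the members that were tested, the settings tried put none past the threshold, and where a difference turned its sign its adjusted p was 0.739 or higher (limma or Fisher's exact test). Of the tested member values recomputed without leaving out an animal, 185 kept their direction and their side of the threshold and 35 turned their sign. The values of Cacna1g in pools against naive animals or single neurons have no test. Of these, 2 moved by more than the spread between animals. The other 21 moved by less or, on the arcsine scale, were compared by sign only and kept it. The cause was not tested.

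Cacna1g in pools, RIPC against naive, was 66.3 points at 50% of the assays and 29.7 with single neurons and pools together. The latter also gave -5.53 (Cacna1g, RIPC against sham) and -1.89 points (Cacna1h, RIPC against naive), and 0.12 cycles for Cacna1i (RIPC against sham). At 50% of the assays the Cacna1h pool level (sham against naive) was -0.18 and its side level -0.32 cycles, and Cacna1i by side was -2.83 points and -0.13 cycles. With every sample that had at least 1 value, Cacna1g by side was 3.41 points and 0.081 cycles, the Cacna1i side level was -0.027 cycles, single neurons in RIPC against sham gave 5.40 (Cacna1g) and 0.10 points (Cacna1h), and the Cacna1h pool level in RIPC against sham was -0.062 cycles. Weighting animals by their samples gave 6.67 points (Cacna1g, single neurons, RIPC against sham), -5.56 and -5.89 points (Cacna1h in pools and single neurons, RIPC against naive), -5.62 points (Cacna1i in pools, sham against naive), and Cacna1h pool levels of -0.43 (RIPC against naive) and -0.74 cycles (RIPC against sham). Fisher's exact test over pools had the same -5.56 and -5.62 points, and the arcsine scale gave -0.010 for Cacna1h (RIPC against naive). With the mean number of assays as a covariate, Cacna1h was 5.60 (pools, RIPC against sham), -1.91 (pools, sham against naive) and -2.59 points (single neurons, RIPC against naive), and Cacna1i -7.07 points (pools, sham against naive). Pools alone gave side differences of 0.53 cycles for Cacna1g, -2.43 points and -0.051 cycles for Cacna1h and -5.28 points for Cacna1i. Centring on all genes gave a Cacna1g side level of 0.028 cycles. Uncentred Ct gave -0.25 (Cacna1h, RIPC against sham), -0.19 (Cacna1i by side) and 0.17 cycles (Cacna1i, sham against naive).

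Leaving out an animal at a time, and taking a group left with 1 animal to vary like the others, moved values by over 1.5 times also where the sign held. Ranges were 14.1 to 38.4 points for sham and 16.1 to 36.5 for RIPC against naive for Cacna1g in single neurons, 0.37 to 17.0 points for Cacna1h in pools of sham against naive, and -29.7 to -10.9 (RIPC against sham) and -29.6 to -0.83 points (RIPC against naive) for Cacna1i in pools. For Cacna1i in single neurons the ranges were -23.2 to -5.61 (RIPC against naive) and 12.7 to 30.2 points (RIPC against sham). Ranges of level were 0.011 to 1.33 cycles for the Cacna1h pool level in sham against naive, and -1.07 to -0.034 and -1.55 to -0.51 cycles for the Cacna1i pool level in sham and RIPC against naive. By side the ranges were -7.03 to -0.051 points for Cacna1g and 0.16 to 0.45 cycles for the Cacna1h level. Of those that crossed 0, the ones of Cacna1g were -0.41 to 24.6 points (pools, RIPC against sham), -11.1 to 12.2 (single neurons, RIPC against sham) and -0.29 to 0.18 cycles (side). For Cacna1h they were -3.89 to 15.0 and -10.4 to 8.38 points (pools, RIPC against naive and sham), -4.34 to 21.6, -8.05 to 17.9 and -14.5 to 4.55 points (single neurons, sham against naive, RIPC against naive, RIPC against sham), -0.46 to 1.56 and -1.05 to 0.97 cycles (pools, RIPC against naive and sham) and -1.19 to 3.20 points (side). For Cacna1i they were -8.30 to 20.5 points (pools, sham against naive), -1.57 to 4.23 points and -0.049 to 0.16 cycles (side). Pools against single neurons ranged from 15.3 to 26.5 points for Cacna1i, with 5 to 57 genes called on the panel. Without naive replicate 3, 3 genes (sham against naive; range 0 to 3) and 1 gene (RIPC against naive; range 0 to 1) were called in single neurons, and without naive replicate 2, 1 gene (range 0 to 1) by pool level in sham against naive.

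The animal numbers were not taken to pair animals of different groups, since the correlations of pairs with the same number were of both signs: 9 pairs with the same number correlated between -0.33 and 0.37 (median 0.16), and 24 other pairs between -0.43 and 0.37 (median -0.072). With the number as a replicate block, Cacna1g in pools was 39.7 points in sham against naive, 48.4 in RIPC against naive and 8.77 in RIPC against sham, Cacna1g in single neurons was 57.0 points in sham against naive (adjusted p = 0.212, limma), the Cacna1h pool level in RIPC against sham was -0.084 cycles, and 0 genes were called in each treatment contrast. At 50% of the assays, shares of single neurons by treatment and pools against single neurons could not be fitted.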
